A study of Mus musculus with 8 samples.

Results

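The 10 genes described here encode the enzymes that modify and crosslink collagen: the catalytic α subunits of prolyl 4-hydroxylase (P4ha1, P4ha2, P4ha3), the lysyl hydroxylases (Plod1, Plod2, Plod3) and 4 lysyl oxidases (Lox, Loxl1, Loxl2, Loxl3). They were selected by gene symbol from the 54532 Ensembl genes of the expression table, and each symbol matched 1 row. These genes and the gene lists below were chosen with earlier results of these data known. The shares of all genes set beside their counts are therefore a description and not a test. RNA sequencing had been carried out on mouse cardiac fibroblasts at day 7, with 2 libraries in each of 4 groups. Cells carrying a vector and cells with EphrinB2-overexpression were each kept in complete medium or induced to osteogenic differentiation. EphrinB2 is a membrane-bound ligand of the Eph receptor tyrosine kinases. The labels give no strain, age or sex of the mice, no composition of either medium, and no promoter or delivery route of the overexpression. The labels do not say if the 2 libraries of 1 group are separate cultures, and p-values therefore cover only library-to-library spread, which could be technical.

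Collagen chains are hydroxylated in the endoplasmic reticulum before they fold. Prolyl 4-hydroxylase makes 4-hydroxyproline, which stabilises the triple helix, and is a tetramer of α subunits with protein disulfide isomerase (P4hb). Lysyl hydroxylases make hydroxylysine, and all of these hydroxylases need iron, 2-oxoglutarate and ascorbate. Lysyl oxidases are secreted copper enzymes that oxidise lysine and hydroxylysine residues of collagen and elastin to aldehydes, which then react to form the covalent crosslinks that make a matrix stiff and insoluble. In the heart these enzymes are products mainly of fibroblasts, and their levels are known to rise in fibrotic scars.

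Levels are in FPKM, fragments per kilobase of transcript scaled to the size of the library, so that they can be set side by side between genes. The 8 libraries held between 16493963 and 20550770 counted reads, estimated from the steps of the FPKM values, and the 10 genes took between 257 reads (P4ha3) and 73784 reads (Lox) in a library. Efnb2, the gene that encodes EphrinB2, was at 6.30 and 5.56 FPKM in the vector libraries in complete medium against 31.3 and 32.9 in the EphrinB2 libraries, and at 1.39 and 1.27 against 5.02 and 18.3 in osteogenic medium, so every EphrinB2 library was above its vector counterparts. The partners in each EphrinB2 group differed from each other more than the vector partners did. EphrinB2 library 2 in complete medium and EphrinB2 library 1 in osteogenic medium are called here the libraries that stood apart. The spread between 2 partners cannot tell which of them is the unusual one, and this was not tested. The SD over genes of the log2 difference between partners was 0.52 and 0.66 in the EphrinB2 groups in complete and osteogenic medium, against 0.26 and 0.23 in the vector groups, and in the EphrinB2 groups that difference went with gene length (Spearman rho across 12990 genes -0.44 and -0.51, against -0.04 and 0.02 in the vector groups). The 10 genes have merged exon lengths of 3135 to 6765 bases, with a median of 3957 bases over all genes tested. Results that rest on these libraries are also given without them.

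On the mouse assembly GRCm38 (mm10), P4ha1 lies on chromosome 10 (59323296 to 59373304, plus strand), P4ha2 on chromosome 11 (54100095 to 54131665, plus) and P4ha3 on chromosome 7 (100285520 to 100319699, plus). Plod1 lies on chromosome 4 (147909753 to 147936767, minus), Plod2 on chromosome 9 (92542223 to 92608428, plus) and Plod3 on chromosome 5 (136987019 to 136996648, plus). Loxl1 lies on chromosome 9 (58287738 to 58313186, minus), Loxl2 on chromosome 14 (69609068 to 69695834, plus) and Loxl3 on chromosome 6 (83034173 to 83052562, plus). Plod3 overlaps Znhit1 and Loxl3 overlaps Htra2 on the other strand. The sources used here do not say whether counting used strand, so reads from those overlaps cannot be assigned with certainty.

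The promoters of 3 members are shown because their levels moved differently between the media: P4ha1 and P4ha3 were lower in osteogenic medium and Plod1 was not. RefSeq promoter windows on GRCm38.p6 were matched for 5 of the 10 members (P4ha1, P4ha2, P4ha3, Plod1 and Plod3). Each run is the 250 bases before the annotated start, 5′ to 3′ on the strand of the gene, and capitals mark matches on either strand to ACGTG, the core of the hypoxia response element, or to GCGTG, the core bound by the aryl hydrocarbon receptor and, in part, by hypoxia-inducible factors. The P4ha1 window is chr10:59323046-59323295 (plus), the P4ha3 window chr7:100285270-100285519 (plus) and the Plod1 window chr4:147936777-147937026 (minus).
P4ha1 promoter: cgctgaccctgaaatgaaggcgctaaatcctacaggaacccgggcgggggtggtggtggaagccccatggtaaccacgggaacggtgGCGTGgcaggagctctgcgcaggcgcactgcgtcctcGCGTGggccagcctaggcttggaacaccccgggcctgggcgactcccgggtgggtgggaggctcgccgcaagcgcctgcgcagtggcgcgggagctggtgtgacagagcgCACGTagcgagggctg
P4ha3 promoter: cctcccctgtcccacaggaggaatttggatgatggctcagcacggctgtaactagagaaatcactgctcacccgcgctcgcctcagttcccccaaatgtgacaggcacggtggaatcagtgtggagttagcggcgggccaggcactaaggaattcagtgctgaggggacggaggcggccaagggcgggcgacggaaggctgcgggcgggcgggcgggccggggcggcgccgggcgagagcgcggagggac
Plod1 promoter: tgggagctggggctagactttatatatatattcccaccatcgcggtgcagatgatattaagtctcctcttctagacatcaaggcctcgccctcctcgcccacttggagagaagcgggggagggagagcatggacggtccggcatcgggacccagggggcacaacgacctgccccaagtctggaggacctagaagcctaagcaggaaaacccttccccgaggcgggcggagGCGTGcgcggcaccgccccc
The P4ha1 window held 1 match to ACGTG and 2 to GCGTG, the Plod1 window held 1 match to GCGTG, and the P4ha3 window held neither. The matched windows that are not shown held both motifs. P4ha2 had 1 match to ACGTG and 2 to GCGTG, and Plod3 had 1 and 3. ACGTG was present in 16.6% and GCGTG in 28.2% of 32851 promoter windows of the same length. These matches describe letters only.

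The first question was how the levels in vector cells differed between complete and osteogenic medium at day 7. In vector cells 5 of the 10 enzymes fell in osteogenic medium (P4ha1, P4ha3, Plod2, Loxl1 and Loxl2) and none rose. The background was 7.52% of the 12994 genes tested called in either direction, 3.11% called lower and 4.41% called higher (adjusted p under 0.05, limma over all 8 libraries). The median log2 difference was -0.82 over the 10 enzymes and -0.02 over all genes tested. In EphrinB2 cells the corresponding comparison called 6 of 10 lower (the same 5 and Loxl3) and none higher, against 11.8% of all genes called in either direction, 5.44% called lower and 6.36% called higher. The median there was -1.01, against 0.03 over all genes tested. In both kinds of cells 9 of the 10 enzymes were lower in both osteogenic libraries than in both complete medium libraries, and Plod1 was the one that was higher. Such separation was common: 38.8% of all genes were lower without overlap in vector cells and 23.6% in EphrinB2 cells.

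**Figure D1:**
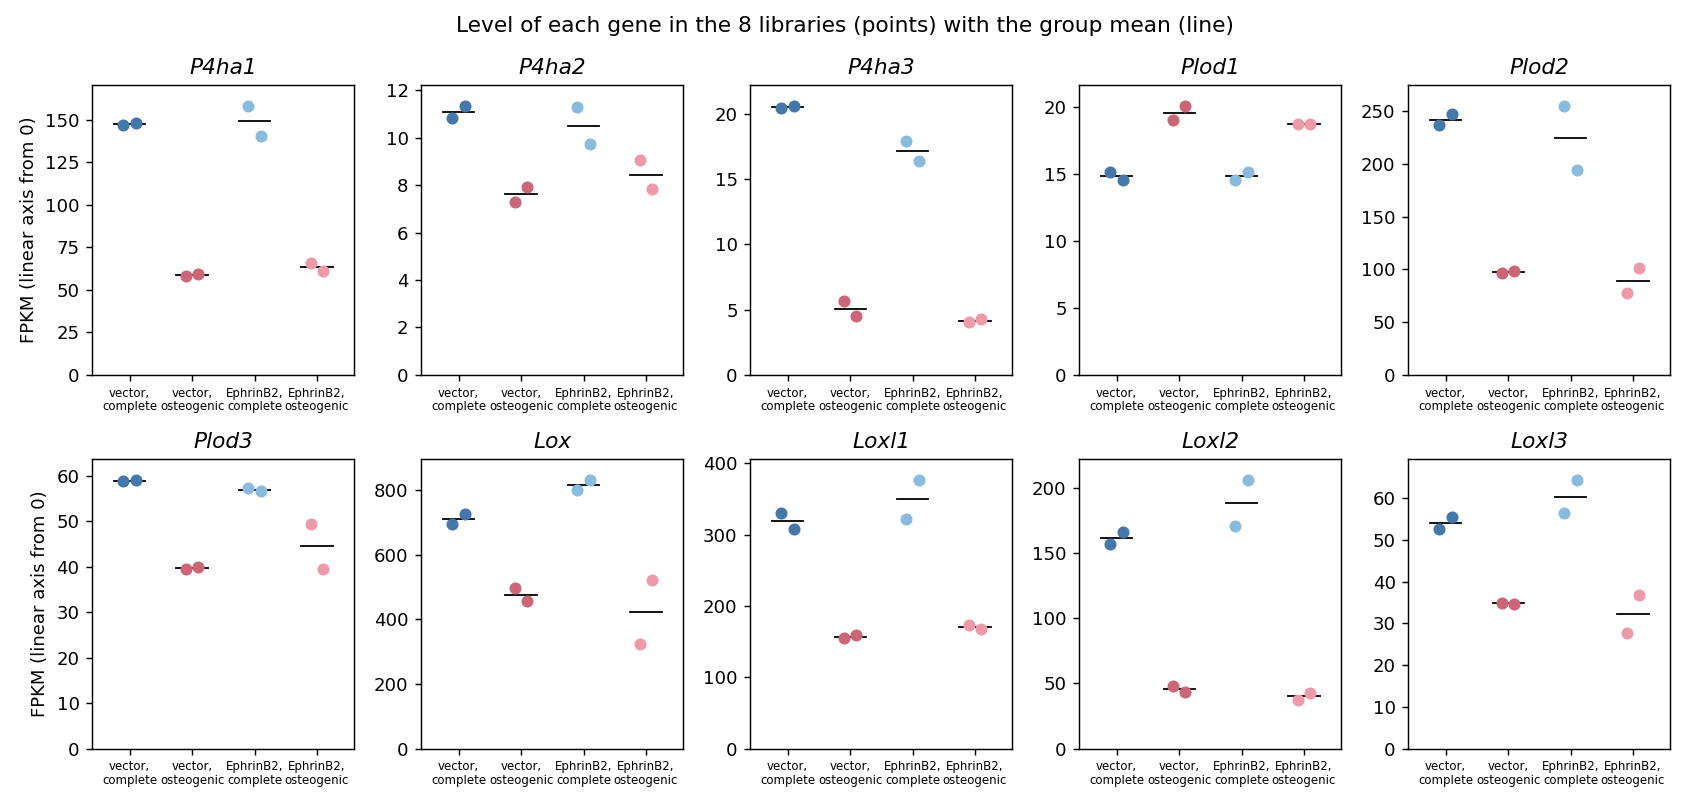
Level of each of the 10 genes in FPKM (linear axis from 0, a scale of its own for each gene) in the 4 groups, with 1 point per library and a line at the group mean. The osteogenic points lie below the complete medium points of the same cells for 9 genes and above them for Plod1.

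Among the α subunits of prolyl 4-hydroxylase, P4ha1 was by far the most abundant and P4ha3 had the largest relative decrease. P4ha1, the main subunit of most cells, was at 147.0 and 148.1 FPKM in vector cells in complete medium and at 58.4 and 59.5 in osteogenic medium. Values for EphrinB2 cells were 158.0 and 140.7 against 66.1 and 61.1. All 4 osteogenic libraries were thus well below all 4 complete medium libraries. The log2 difference was -1.31 (SE 0.16, adjusted p = 0.00525) in vector cells and -1.22 (adjusted p = 0.00572) in EphrinB2 cells, and the ratio of mean FPKM was 0.399 and 0.426.

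P4ha3 encodes the third α subunit, which is known to have a narrower range of expression. It was at 20.4 and 20.6 FPKM in vector cells in complete medium and at 5.62 and 4.50 in osteogenic medium, and in EphrinB2 cells at 17.9 and 16.4 against 4.04 and 4.25. The complete and osteogenic libraries were far apart in both kinds of cells. The log2 difference of P4ha3 was -1.83 (SE 0.15, adjusted p = 0.00111) in vector cells and -1.82 (adjusted p = 0.00107) in EphrinB2 cells (ratios of mean FPKM 0.247 and 0.242). It was the only one of the 10 genes to pass the threshold in both media comparisons under each of 18 alternative settings, with adjusted p no higher than 0.0271 and 0.0429.

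P4ha2, the α subunit of the type II enzyme, ranged from 9.73 to 11.3 FPKM over the 4 complete medium libraries and from 7.29 to 9.07 over the 4 osteogenic libraries. Its log2 differences, -0.49 for vector cells (adjusted p = 0.116) and -0.29 for EphrinB2 cells (adjusted p = 0.235), did not pass the threshold. The order of the 2 minor subunits differed between the media. P4ha3 was above P4ha2 in all 4 complete medium libraries, and P4ha2 was above P4ha3 in all 4 osteogenic libraries.

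Among the lysyl hydroxylases, Plod2 fell, and neither Plod1 nor Plod3 passed the threshold. Plod2 encodes the enzyme that hydroxylates lysines in the telopeptides at the ends of collagen chains, which is known to direct crosslinks towards the stable pyridinoline type. It was at 236.6 and 247.2 FPKM in vector cells in complete medium and at 96.7 and 98.2 in osteogenic medium. Values for EphrinB2 cells were 254.6 and 194.3 against 77.4 and 101.5, so the partners differed but the media did not overlap. The log2 difference of Plod2 was -1.30 (SE 0.22, adjusted p = 0.0156) in vector cells and -1.32 (adjusted p = 0.0124) in EphrinB2 cells, with ratios of mean FPKM of 0.403 and 0.398.

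Plod1 encodes the enzyme that acts mainly on lysines within the triple helix. It was at 15.1 and 14.6 FPKM in vector cells in complete medium and at 19.0 and 20.01 in osteogenic medium, and in EphrinB2 cells at 14.5 and 15.1 against 18.7 and 18.7. All 4 osteogenic libraries were above all 4 complete medium libraries. The log2 differences, 0.37 for vector cells (SE 0.13, adjusted p = 0.181) and 0.32 for EphrinB2 cells (adjusted p = 0.168), were nevertheless not past the threshold. Groups that were higher without overlap made up 34.4% of all genes in vector cells and 24.3% in EphrinB2 cells.

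Plod3, a lysyl hydroxylase that also transfers sugars to hydroxylysine, was at 58.8 and 59.0 FPKM in vector cells in complete medium and at 39.5 and 39.9 in osteogenic medium. Values for EphrinB2 cells were 57.3 and 56.6 against 49.4 and 39.6, where the higher osteogenic value came from the library that stood apart. Its log2 differences of -0.56 (adjusted p = 0.113) and -0.36 (adjusted p = 0.199) did not pass the threshold. Without that library the difference in EphrinB2 cells was -0.51 (adjusted p = 0.0547, with the remaining library assumed to vary like the other groups), and without both libraries that stood apart it was -0.52, a value of 1 library against 1. Znhit1, which overlaps Plod3 on the other strand, reached 24.5 FPKM.

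The lysyl oxidases included the most abundant of the 10 genes, Lox, and the one with the largest difference in EphrinB2 cells, Loxl2. Loxl2, a lysyl oxidase with scavenger receptor domains that is known to crosslink basement membrane collagen, was at 156.8 and 166.3 FPKM in vector cells in complete medium and at 47.9 and 43.5 in osteogenic medium. Values for EphrinB2 cells were 170.6 and 205.8 against 37.3 and 42.7. No osteogenic library came near a complete medium library. The log2 difference of Loxl2 was -1.80 (SE 0.18, adjusted p = 0.00262) in vector cells and -2.20 (adjusted p = 0.00107) in EphrinB2 cells, with ratios of mean FPKM of 0.283 and 0.212.

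Loxl1, known for its part in elastic fibre assembly, was at 331.1 and 308.2 FPKM in vector cells in complete medium and at 154.5 and 159.3 in osteogenic medium. Values for EphrinB2 cells were 322.3 and 376.5 against 172.9 and 167.9. Its level in osteogenic medium was thus lower by a like factor in both kinds of cells, with ratios to complete medium of 0.491 and 0.488. The log2 differences were -1.02 (SE 0.17, adjusted p = 0.0174) and -1.03 (adjusted p = 0.0138).

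Lox, the founding member of the family, was at 695.0 and 725.0 FPKM in vector cells in complete medium and at 496.4 and 458.1 in osteogenic medium. Values for EphrinB2 cells were 799.7 and 831.3 against 325.0 and 521.5. The media did not overlap in either kind of cell, but the 2 EphrinB2 osteogenic libraries differed widely and the lower one was the library that stood apart. The log2 difference of Lox was -0.57 (SE 0.25, adjusted p = 0.285) in vector cells and -0.98 (adjusted p = 0.0530) in EphrinB2 cells, neither past the threshold. The call in EphrinB2 cells depended on the setting of the limma fit. Lox passed there with the gene length trend removed (-0.95, adjusted p = 0.0272) and with no mean-variance trend. It did not pass with only the libraries compared (adjusted p = 0.347) or with library weights per group (adjusted p = 0.180). Without both libraries that stood apart, the difference in EphrinB2 cells was -0.62, a value of 1 library against 1.

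Loxl3, which shares the scavenger receptor domains of Loxl2, was at 52.7 and 55.4 FPKM in vector cells in complete medium and at 35.0 and 34.6 in osteogenic medium, and in EphrinB2 cells at 56.5 and 64.3 against 27.7 and 36.7. Its groups did not overlap in either kind of cell. Loxl3 fell in EphrinB2 cells (log2 difference -0.90, SE 0.19, adjusted p = 0.0274), whereas the difference of -0.62 in vector cells was not past the threshold (adjusted p = 0.112). Htra2, which overlaps it on the other strand, reached 19.6 FPKM.

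**Figure D2:**
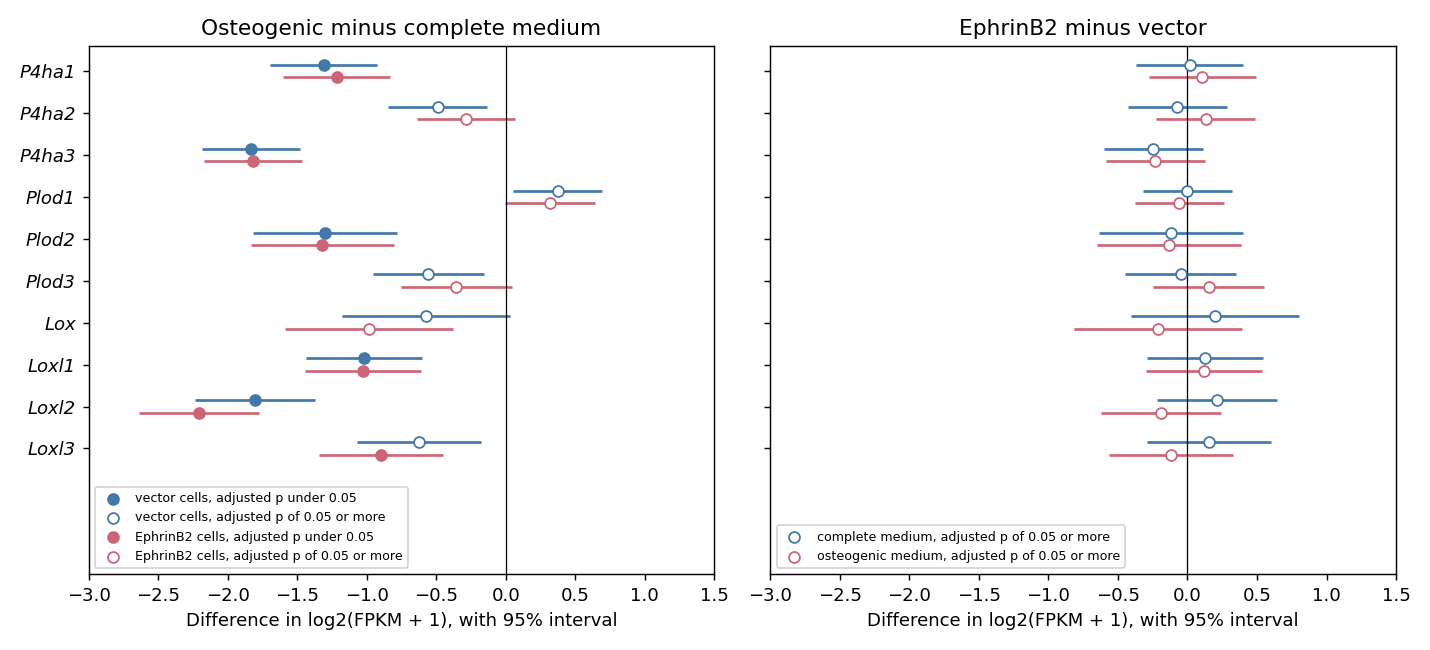
Difference in log2(FPKM + 1) for each gene with its 95% interval, osteogenic against complete medium in vector and EphrinB2 cells, and EphrinB2 against vector cells in each medium. Filled points have an adjusted p under 0.05 and occur only in the media comparisons, 5 in vector cells and 6 in EphrinB2 cells, all below 0.

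How many of the enzymes passed the threshold depended on how the spread was estimated. Fitted on the 4 vector libraries alone, all 10 passed, 9 lower and Plod1 higher, but so did 40.6% of all genes. Fitted on the 4 EphrinB2 libraries alone, 1 of 10 passed (P4ha3, adjusted p = 0.0422), with 1.18% of all genes. Without both libraries that stood apart all 10 passed in each kind of cell, with 40.6% and 29.7% of all genes. That fit had 1 library in each EphrinB2 group and took its spread from the vector libraries alone, whose partners varied less than the EphrinB2 partners, so its p-values for EphrinB2 cells carry no estimate of their own spread. With library weights per group, an alternative added after seeing the data, 10 passed in vector cells and 3 in EphrinB2 cells (P4ha1, P4ha3 and Loxl2), with 42.5% and 2.58% of all genes. With the trend in gene length removed, 6 passed in vector cells, all lower, and 8 in EphrinB2 cells, 7 lower and Plod1 higher (log2 difference 0.49, adjusted p = 0.0434), with 12% and 17.5% of all genes. Leaving out 1 vector library at a time left 1 or 2 of the 10 called in vector cells (P4ha3, and Loxl2 except without osteogenic library 2), and leaving out either EphrinB2 osteogenic library gave 9. The shares of all genes called in those fits were 1.49% and 1.47% without complete medium library 1 or 2, 1.6% and 1.3% without osteogenic library 1 or 2, and 13.5% without either EphrinB2 osteogenic library. P4ha1, Plod2 and Loxl1 then had adjusted p up to 0.0923, 0.158 and 0.209 in vector cells, at differences of -1.32 to -1.30, -1.33 to -1.27 and -1.07 to -0.97. In EphrinB2 cells Loxl1 and Loxl3 were no longer called without any 1 vector library or without EphrinB2 complete library 2, with adjusted p up to 0.0632 and 0.121.

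The make-up of each enzyme family differed between the media, as given by the share of each gene in the summed FPKM of its family. These shares were chosen as a measure after the values were seen and were not tested. P4ha1 held 82.4% ± 0.126 (SD, n = 2) of the α subunit total in vector cells in complete medium and 82.3% ± 0.590 in osteogenic medium, so it kept its share while the total went from 179.1 to 71.6 FPKM. P4ha2 held 6.19% ± 0.148 in complete and 10.6% ± 0.565 in osteogenic medium, and P4ha3 held 11.4% ± 0.0220 and 7.07% ± 1.155. In EphrinB2 cells P4ha2 held 5.93% and 11.1%, and P4ha3 9.70% and 5.45%.

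Among the lysyl hydroxylases the share of Plod2 was 76.6% ± 0.614 in vector cells in complete medium and 62.2% ± 0.142 in osteogenic medium, while that of Plod1 was 4.70% ± 0.234 and 12.5% ± 0.280. The ratio of telopeptide to helical lysyl hydroxylase mRNA, Plod2 to Plod1, was 16.3 ± 0.943 in vector cells in complete medium and 4.99 ± 0.124 in osteogenic medium. In EphrinB2 cells that ratio was 15.2 ± 3.29 and 4.78 ± 0.916. The ranges did not overlap between media in either kind of cell. The share of Plod3 was 18.7% and 25.3% in vector cells.

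In the lysyl oxidase family Loxl2 held 12.97% ± 0.397 of the total in vector cells in complete medium and 6.39% ± 0.190 in osteogenic medium, and 13.3% ± 0.907 and 6.09% ± 0.756 in EphrinB2 cells. Lox held 57.0% ± 1.082 and 66.8% ± 1.26 in vector cells. In EphrinB2 cells its shares of 59.3% and 56.3% in complete medium overlapped with 57.7% and 67.8% in osteogenic medium. In vector cells the ratio of Lox to Loxl2 was 4.40 ± 0.0511 for complete and 10.5 ± 0.113 for osteogenic medium, and 4.36 ± 0.459 and 10.5 ± 2.47 in EphrinB2 cells. Loxl3 stayed between 4.19% and 4.97% of the family in the 8 libraries.

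**Figure D3:**
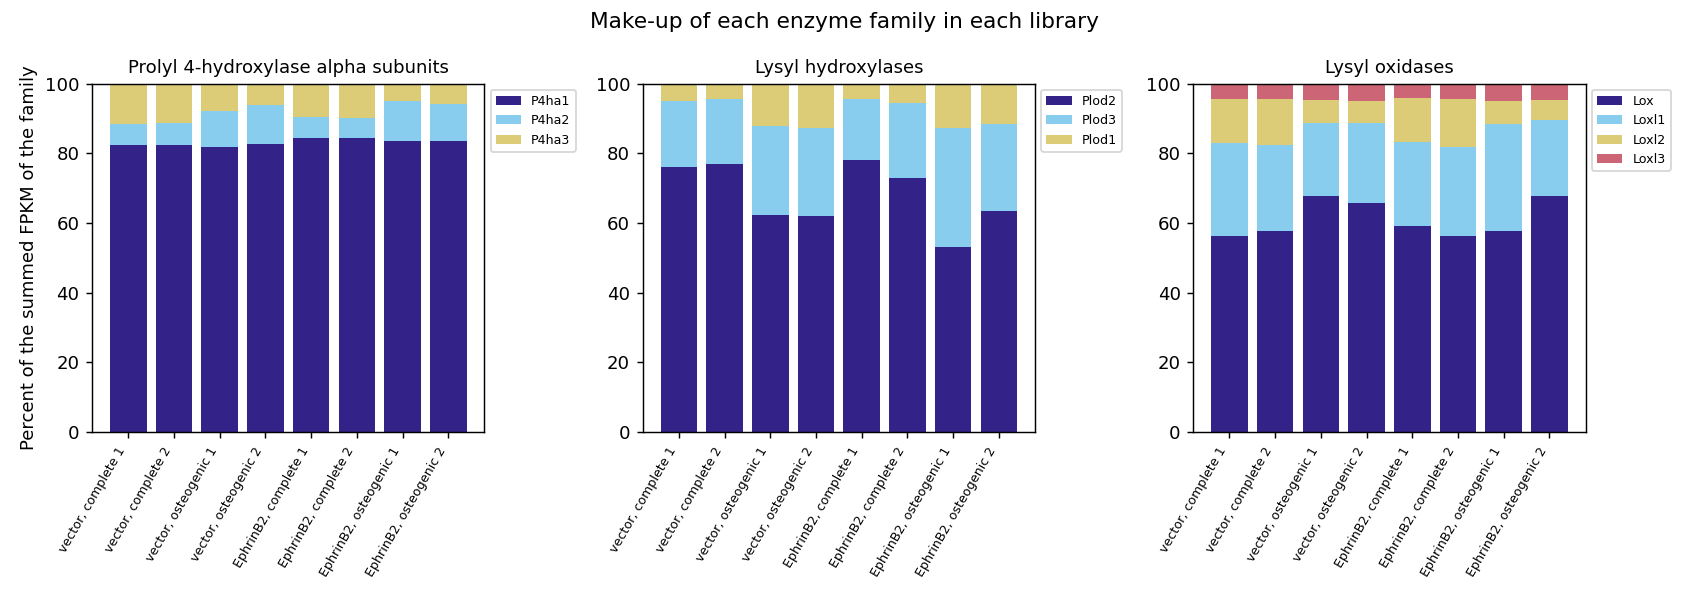
Share of each gene in the summed FPKM of its enzyme family, in percent, with 1 stacked bar for each of the 8 libraries. The P4ha1 share lies between 81.9% and 84.4% throughout, while the Plod1 share is 4.45% to 5.68% in complete and 11.7% to 12.9% in osteogenic medium.

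The transcripts of the enzymes were next set against those of the major fibrillar collagens, whose chains the enzymes act on. Both are mRNA levels and not amounts of protein. The summed FPKM of Col1a1, Col1a2 and Col3a1 was 3866 ± 114 in vector cells in complete medium and 1288 ± 6.61 in osteogenic medium, and 4464 ± 664 and 1149 ± 163 in EphrinB2 cells. Per 1000 FPKM of these collagens, the lysyl oxidases summed to 322 ± 13.02 FPKM in complete and 555 ± 23.8 in osteogenic medium in vector cells, and to 319 ± 27.0 and 576 ± 44.9 in EphrinB2 cells. The lysyl hydroxylases summed to 81.7 ± 4.27 and 122 ± 0.966 in vector cells and to 67.8 ± 19.7 and 134 ± 10.2 in EphrinB2 cells. The α subunits summed to 46.4 ± 1.67 and 55.6 ± 0.0882 in vector cells and to 40.3 ± 9.23 and 67.3 ± 13.3 in EphrinB2 cells. Every osteogenic library was above every complete medium library in all of these, so the family sums were lower in osteogenic medium by a smaller factor than the collagen sum, which was at 0.333 of its complete medium level in vector cells and 0.257 in EphrinB2 cells. Single members differed from their family sum: the ratios of P4ha3 and Loxl2 were below those of the collagens in both kinds of cells, and Plod1 was higher in osteogenic medium. These ratios were also chosen after the values were seen and carry no test.

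The second question was whether EphrinB2-overexpression went with a difference in the enzymes. None of the 10 passed the threshold against vector cells in either medium, and none had an unadjusted p under 0.05 (limma over all 8 libraries). The background was 0.0077% of all genes in complete medium, which is 1 gene, and 0% in osteogenic medium. Efnb2 itself did not pass, at log2 differences of 2.26 in complete medium (adjusted p = 1.0) and 2.21 in osteogenic medium (adjusted p = 0.567), so the absence of calls in these comparisons does not show that the enzymes were alike. Median log2 differences over the 10 enzymes were 0.01 in complete medium and -0.09 in osteogenic medium.

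In complete medium both EphrinB2 libraries were above both vector libraries for Lox, Loxl2 and Loxl3, and below them for P4ha3 and Plod3. Of all genes 14.3% were higher and 11.5% lower without overlap. The Lox difference was 0.20 on the log2 scale (95% interval -0.40 to 0.80, adjusted p = 1.0) and that of P4ha3 was -0.25 (95% interval -0.60 to 0.11, adjusted p = 1.0). Both intervals included 0.

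In osteogenic medium both EphrinB2 libraries were above both vector libraries for P4ha1 and Loxl1, and below them for P4ha3, Plod1 and Loxl2, against 25.6% and 22.3% of all genes. The Loxl2 difference was -0.19 (adjusted p = 0.603), that of P4ha3 -0.23 (adjusted p = 0.567) and that of Lox -0.21 (adjusted p = 0.662). Lox changed sign with a single library: its difference was 0.13 without EphrinB2 library 1, the one that stood apart, and -0.55 (adjusted p = 0.0400) without EphrinB2 library 2, each with 1 library left in that group and its spread taken from the other groups. P4ha3 was the only member below vector cells without overlap in both media, at differences that passed the threshold in neither. The share of all genes below vector cells in both media was not counted.

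The third question was whether the difference between media was the same in vector and EphrinB2 cells, tested as the interaction of EphrinB2 and medium. No member passed the threshold, none had an unadjusted p under 0.05, and 0% of all genes were called (limma). The interaction of Lox was -0.41 (SE 0.36, adjusted p = 0.746) and that of Loxl2 -0.40 (SE 0.26, adjusted p = 0.746). Loxl3 passed the media threshold in EphrinB2 cells and not in vector cells, but its interaction of -0.28 (SE 0.26, adjusted p = 0.746) did not show that the cells differed.

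The partners of these enzymes in collagen modification were examined as a list of 21 genes, of which 20 passed the filter on low levels. In vector cells 3 fell and 1 rose, and in EphrinB2 cells 5 fell and 1 rose. Of all genes 3.11% fell and 4.41% rose in vector cells, and 5.44% fell and 6.36% rose in EphrinB2 cells. The medians of the list were -0.39 and -0.28, against -0.02 and 0.03 over all genes. Serpinh1, the collagen chaperone Hsp47, had mean levels of 981.7 ± 5.71 FPKM (SD, n = 2) in complete and 378.5 ± 3.26 in osteogenic medium in vector cells, and fell by 1.37 on the log2 scale (adjusted p = 0.00723) there and by 1.33 (adjusted p = 0.00680) in EphrinB2 cells. P3h1, a prolyl 3-hydroxylase, had a log2 difference of -0.87 in vector cells (adjusted p = 0.0322), and Fkbp10, a chaperone needed for telopeptide lysyl hydroxylation, one of -0.82 (adjusted p = 0.0397). Loxl4, the remaining lysyl oxidase, fell in EphrinB2 cells (log2 difference -1.60, adjusted p = 0.0275), from 8.69 and 12.9 FPKM in complete medium to 1.70 and 4.44 in osteogenic medium. P4hb, the partner subunit of prolyl 4-hydroxylase, had a difference of -0.68 in both kinds of cells and did not pass (adjusted p = 0.104 and 0.0756).

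Tmem38b, which encodes a potassium channel of the endoplasmic reticulum whose loss is known to disturb lysyl hydroxylation, was the one partner that rose. Its levels were 10.4 and 9.91 FPKM in complete and 28.5 and 30.7 in osteogenic medium in vector cells, and 9.93 and 6.66 against 41.0 and 34.9 in EphrinB2 cells. The osteogenic libraries were all far above the complete medium libraries. The log2 difference was 1.46 (adjusted p = 0.00853) in vector cells and 2.08 (adjusted p = 0.00195) in EphrinB2 cells.

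Of 20 substrates and scaffolds of crosslinking, 19 were tested. In vector cells 9 fell and 1 rose, and in EphrinB2 cells 12 fell and 1 rose, with medians of -1.06 and -1.37, against the same 3.11% and 5.44% of all genes that fell. Eln, the elastin gene, went from 115.4 and 127.1 FPKM to 10.98 and 11.3 in vector cells and from 194.9 and 148.6 to 11.95 and 14.2 in EphrinB2 cells, with log2 differences of -3.33 (adjusted p = 0.000337) and -3.61 (adjusted p = 0.000227). This was a larger difference than that of any lysyl oxidase. Col3a1, a fibrillar collagen, fell with log2 differences of -1.66 in vector cells and -1.89 in EphrinB2 cells. Fmod, a proteoglycan of collagen fibrils, had -1.96 and -1.99, and Postn, a matricellular protein, had -2.20 and -2.36. Dcn, the small proteoglycan decorin, was the gene that rose, with log2 differences of 1.46 and 2.16, and is outside the rule for named genes.

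Of 11 genes of copper and ascorbate supply 9 were tested, and 2 rose and none fell in each kind of cell, where 4.41% and 6.36% of all genes rose. Slc31a2, a copper transporter, rose in both kinds of cells, with log2 differences of 0.80 and 0.71 (adjusted p = 0.0179 and 0.0215). Slc2a3, a glucose transporter that also carries oxidised ascorbate, rose by 0.91 and 0.70 on the log2(FPKM + 1) scale, but its levels were low, 0.276 to 0.436 FPKM in complete and 0.981 to 1.59 in osteogenic medium.

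Of 20 hypoxia-response genes 17 were tested. In vector cells 1 fell and none rose, and in EphrinB2 cells 2 fell and 2 rose, with medians of -0.15 and -0.19. Since 7.52% and 11.8% of all genes were called in either direction, a single call among the 17 in vector cells is near the background. Vegfa, the angiogenic growth factor, fell in both kinds of cells, with log2 differences of -1.56 and -1.34 (adjusted p = 0.0155 and 0.0212). Hif1a, the oxygen-regulated transcription factor subunit, fell by 0.80 in EphrinB2 cells (adjusted p = 0.0240). Adm and Bnip3 rose by 1.24 and 0.75 there. In vector cells Hif1a was at -0.58, Adm at 0.64 and Bnip3 at 0.59, the same directions, but none passed the threshold. None of the 4 lists had a gene past the threshold in either EphrinB2 comparison or in the interaction (limma). At an unadjusted p under 0.05 there were 2 partners in osteogenic medium, 1 substrate in complete medium and none in the interaction.

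Among the genes named from the lists, Eln, Postn and Fmod stayed past the threshold with any 1 library left out. In vector cells Serpinh1, Tmem38b, P3h1, Fkbp10, Col3a1, Slc31a2, Slc2a3 and Vegfa were no longer called when any 1 vector library was left out. In EphrinB2 cells the same held for Fkbp10, Loxl4, Slc31a2, Slc2a3, Vegfa, Hif1a, Adm and Bnip3. The call of P3h1 in EphrinB2 cells was not examined in this way.

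**Figure D4:**
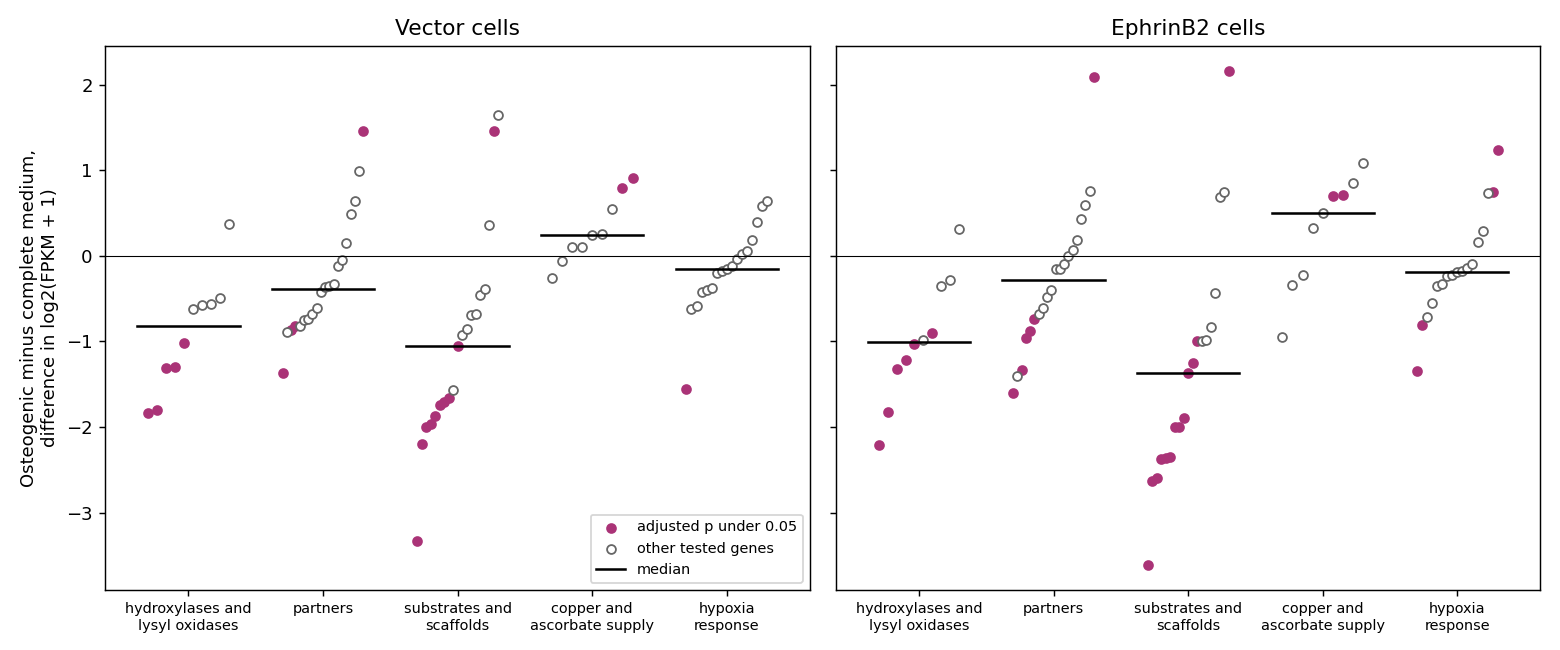
Difference in log2(FPKM + 1) between osteogenic and complete medium for each tested gene of the 10 enzymes and of the 4 lists, in vector and EphrinB2 cells, with a line at the median of each list. Filled points have an adjusted p under 0.05; the substrates have the lowest medians, -1.06 and -1.37.

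The labelled cell type was checked against its markers. All 10 fibroblast markers were above 1 FPKM in at least 1 library, with summed levels of 5010 to 5190 FPKM in complete and 2820 to 2890 in osteogenic medium in vector cells, and of 5310 to 6190 and 2960 to 3250 in EphrinB2 cells. Of these markers 3 fell (Col1a1, Col1a2 and Col3a1) and 1 rose (Dcn) in each kind of cell. All 12 macrophage markers were also present, with sums of 1870 to 2120 FPKM in complete and 4630 to 4850 in osteogenic medium in vector cells, and of 860 to 1790 and 4110 to 8310 in EphrinB2 cells. Of these markers 6 rose in vector cells and 11 in EphrinB2 cells, and none fell. For comparison, 4.41% of all genes rose and 3.11% fell in vector cells, and 6.36% rose and 5.44% fell in EphrinB2 cells. The enzymes that fell did so in the medium where macrophage markers rose. The part of a change in cell composition in the values of the enzymes was not tested. In these bulk samples fewer cells of a type and less RNA per cell cannot be told apart.

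Markers of the other cell types were low. Of the endothelial markers 4 of 8 were under 1 FPKM in all libraries, with sums of 9.09 to 12.7 FPKM, and of 7 cardiomyocyte markers 6 were under 1 FPKM and Actn2 was at 0 in all libraries. The cardiomyocyte sum was 0.694 to 0.929 FPKM for complete and 6.04 to 15.4 in osteogenic medium, and Tnnt2, the one marker tested, rose in both kinds of cells (log2 differences 2.12 and 2.80). Of the 7 smooth muscle and pericyte markers 2 were tested, and neither passed the threshold in a media comparison. Smooth muscle and pericyte markers summed to 3.83 to 6.53 FPKM and epicardial markers to 6.10 to 9.77 FPKM. Of 3 endothelial markers tested Cdh5 fell, with log2 differences of -1.13 in vector and -1.21 in EphrinB2 cells. Pecam1 was at -0.62 and -0.51 and Tek went the other way, at 0.80 and 0.50, and neither passed the threshold. Of 2 epicardial markers tested Msln rose (2.19 and 2.25). Upk3b went the other way (-0.75 and -0.70) and did not pass the threshold.

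For each enzyme the gene with the most similar pattern was taken as the one with the highest Pearson r of log2(FPKM + 1) over the 8 libraries. The libraries differ mainly by medium, so these values describe likeness only. The nearest gene was Dio3 for P4ha1 (r = 0.9987), Chpf for P4ha2 (0.9894), Insig1 for P4ha3 (0.9954), Apobec1 for Plod1 (0.9966), Cttn for Plod2 (0.9974) and Cpxm1 for Plod3 (0.9932). It was Ubxn4 for Lox (0.9937), Rftn1 for Loxl1 (0.9989), Hs6st2 for Loxl2 (0.9995) and Pafah1b1 for Loxl3 (0.9986). No member was the nearest gene of another member.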

How the data were processed

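Total RNA from 8 libraries of mouse cardiac fibroblasts at day 7 had been extracted with Trizol, per the labels' protocols. The values are FPKM per Ensembl gene, deposited by the authors as 1 table. The submitters' processing notes name CASAVA, HISAT2 2.0.5, featureCounts 1.5.0-p3, DESeq2 1.16.1 and the build mm10, without saying what each did. The sources used here give neither strand setting nor annotation version. Depth was estimated from the FPKM steps and GENCODE M21 exon lengths, and 98.1% to 98.3% of values under 50 reads fell on whole reads within 0.02. Since the deposited values are not counts, no count test was run.

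Genes at 1 FPKM or more in at least 2 of 8 libraries (12994) were tested on log2(FPKM + 1) with limma 3.58.1 in R 4.3.3. All libraries were in 1 fit with 4 group means and a trended prior (residual df 4, prior df 2.72). p-values were two-sided and Benjamini-Hochberg adjusted over the 12994 genes, and 0.05 was the threshold. A log2 difference on this scale understates changes of low genes. The fit was also run on simulated data with independent noise in each library. That noise lacked the difference with gene length seen between the EphrinB2 partners, so the run does not show how the fit behaves under it.

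Named genes were the 10 enzymes, Efnb2, each enzyme's nearest gene, and up to 4 genes per list in each medium comparison with the smallest p among those past the threshold. P4hb, Dcn and the cell type markers were named in addition, after their values were seen. The members and lists were chosen with earlier results of these data known. The alternatives were another pseudocount, other filters and scalings, no trend, a gene length correction, smaller fits, each library left out and, added after seeing the data, library weights per group.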

Additional observations from a re-analysis of the deposited data

How the results depend on the processing

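Over all 8 libraries 7.52% of all genes were called between media in vector cells and 11.8% in EphrinB2 cells. With the libraries compared only, the shares were 40.6% and 1.18%, and with library weights per group 42.5% and 2.58%. Without both libraries that stood apart, 40.6% of all genes were called in vector cells. The number of enzymes called between media was 5 in vector cells and 6 in EphrinB2 cells. It was 10 and 1 with the libraries compared only, 10 and 10 without both libraries that stood apart, where the EphrinB2 comparison set 1 library against 1 on the spread of the vector libraries, and 10 and 3 with library weights per group, which were added after the data were seen. Leaving out 1 library at a time gave 1 to 9 in vector cells, 4 to 7 in EphrinB2 cells, 0 to 0 for EphrinB2 against vector in complete medium, 0 to 1 in osteogenic medium and 0 to 0 for the interaction. The lowest count, 1, came without vector osteogenic library 2, and each of the other vector libraries left out gave 2. Leaving out either EphrinB2 osteogenic library gave 9 in vector cells. The share of all genes called in these fits ranged from 1.3% to 13.5% in vector cells and from 4.89% to 43.8% in EphrinB2 cells. In each fit that leaves a group with 1 library, that library is assumed to vary like the other groups. No member changed sign between media under any alternative run. Loxl2 lost its call without vector osteogenic library 2 (adjusted p = 0.0550) and, in EphrinB2 cells, with the libraries compared only (adjusted p = 0.0525).

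Signs changed only among EphrinB2 differences and interactions that were not past the threshold. Under quantile normalization P4ha1 was at -0.0382 in complete and -0.14 in osteogenic medium with an interaction of -0.10, Plod3 at -0.0761 and Loxl1 at -0.22 in osteogenic medium. Without both libraries that stood apart, P4ha2 was at 0.0259 and Plod2 at 0.0741 in complete medium. In osteogenic medium Plod2 was then at 0.0579, Plod3 at -0.0039, Lox at 0.13 and Loxl3 at 0.0757. The interactions were -0.0474 for P4ha1, -0.0143 for P4ha3, 0.0843 for Loxl1 and 0.0134 for Loxl3. The P4ha3 interaction was -0.0168 with a pseudocount of 0.1, -0.0147 with median-ratio scaling and -0.15 with the gene length trend removed. With that trend removed Plod1 was at 0.0782 in osteogenic medium with an interaction of 0.11, the Plod2 interaction was 0.0647 and Loxl1 was at -0.0148 in osteogenic medium. Its removal also gave 6 enzymes called in vector cells and 8 in EphrinB2 cells. The causes were not tested.

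Leaving out 1 library at a time, the complete medium differences ranged from -0.0688 to 0.098 for P4ha1, -0.17 to 0.0259 for P4ha2, -0.0272 to 0.025 for Plod1 and -0.31 to 0.0741 for Plod2. The osteogenic differences ranged from -0.33 to 0.0579 for Plod2, -0.0039 to 0.31 for Plod3, -0.55 to 0.13 for Lox and -0.32 to 0.0757 for Loxl3. The interactions ranged from -0.12 to 0.15 for P4ha3, -0.21 to 0.18 for Plod2 and -0.12 to 0.11 for Loxl1.

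No paired analysis was possible because the labels give the groups no shared replicate numbers. The lowest level of a member in a library rested on an estimated 257 reads.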
